A study of Mus musculus with 6 samples.

Results

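The genes described here carry out engulfment, the uptake of dying cells, debris and synapses, around the exchange factor Dock1, its partners Elmo1 and Elmo2, and the receptor Mertk. The 10 members were taken by gene name from 55359 annotated genes, and all 10 reached the mean level of 1 TPM that admitted 18893 genes to the test. TPM, transcripts per 1000000, is an abundance corrected for transcript length. Dock1 was chosen by its annotated TPM, which differed between the genotypes in these same libraries, so the genotype values of the members are given as a description, and the other members were added with those results known.

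Whole brains of mouse embryos at E18.5, shortly before birth, were profiled by RNA sequencing. WT embryos were compared with embryos carrying the PME-1 S156A knock-in, in which the catalytic serine of the methylesterase that demethylates protein phosphatase 2A is replaced by alanine. There were 3 libraries of each genotype, and each library came from 3 brains pooled before extraction. The labels give no strain, sex or treatment, and pooling leaves embryo-to-embryo variation unseen. The knock-in changes a codon, so the level of a gene row does not check the genotype labels.

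Each library held 55359 annotated genes and 26631 to 28575 rows assembled from its own reads, with an estimated 3.15 to 4.14 gigabases aligned. Neuronal markers summed to 3837 to 5153 TPM in the WT libraries and 2812 to 3961 TPM in the S156A libraries, and astrocyte markers to 489 to 556 and 564 to 746 TPM. Oligodendrocyte lineage markers summed to 258 to 292 TPM in the WT libraries and 324 to 435 TPM in the S156A libraries, although the highest single marker of that list overlapped between the groups. Endothelial markers summed to 181 to 256 and 251 to 273 TPM, and erythroid markers to 10025 to 22254 and 17112 to 24281 TPM.

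Engulfment starts when a dying cell or tagged process exposes phosphatidylserine. Mertk and Axl are receptor tyrosine kinases that bind it through the bridging proteins Gas6 and protein S, and Adgrb1 (also called BAI1) binds it directly. Megf10 is a receptor used by astrocytes, and Gulp1 is an adaptor for receptors of this kind. Adgrb1 recruits the Elmo and Dock1 proteins, which load the GTPase Rac1 with GTP, with the adaptor Crk as a further link to Dock1. Active Rac1 drives the actin cup that closes around the target. In the brain these genes are used by microglia, by astrocytes and, during development, by neurons for migration and axon growth.

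Elmo1 and Dock1 are the longest members, spanning 518 and 503 kb in the deposited tables, and as a ratio of the highest to the lowest library their listed values varied most, by 10.8 and 14.1 times. Their start regions are shown because the RefSeq promoter table gives Dock1 a single start and Elmo1 a pair of starts that lie 382 kb apart. Each sequence holds the 250 bases before the start on the plus strand of GRCm38.p6, from RefSeq, with GGGCGG and its complement CCGCCC in capitals, overlapping matches included. These coordinates belong to another build than those of the deposited tables. The windows are chr7:134670437-134670686 for Dock1, chr13:20090257-20090506 for the first Elmo1 start and chr13:20472740-20472989 for the second.
Dock1: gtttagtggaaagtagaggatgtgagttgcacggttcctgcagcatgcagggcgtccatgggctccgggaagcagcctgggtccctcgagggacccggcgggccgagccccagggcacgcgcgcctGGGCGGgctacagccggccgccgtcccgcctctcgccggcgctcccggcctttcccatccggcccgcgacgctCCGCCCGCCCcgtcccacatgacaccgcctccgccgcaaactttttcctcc
Elmo1, first start: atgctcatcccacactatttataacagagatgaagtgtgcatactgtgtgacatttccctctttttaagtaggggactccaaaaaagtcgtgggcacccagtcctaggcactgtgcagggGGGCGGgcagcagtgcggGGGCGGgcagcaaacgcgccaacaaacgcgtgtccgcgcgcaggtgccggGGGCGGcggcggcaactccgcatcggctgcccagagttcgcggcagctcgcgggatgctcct
Elmo1, second start: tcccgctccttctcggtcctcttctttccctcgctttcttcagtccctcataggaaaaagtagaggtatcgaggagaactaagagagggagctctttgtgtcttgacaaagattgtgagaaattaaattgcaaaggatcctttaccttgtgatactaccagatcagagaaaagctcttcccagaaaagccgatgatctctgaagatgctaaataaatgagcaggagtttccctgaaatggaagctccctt
The Dock1 window holds 29 CG dinucleotides and 3 such boxes. The first Elmo1 window holds 21 and 3, and the second holds 5 and 0. The median over 32851 promoter windows of the same length was 6 CG dinucleotides, and 32.7% of them hold GGGCGG on either strand. These matches describe the letters only. Among the members looked up by symbol, 7 had entries in this promoter table.

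The members differed widely in level. Rac1, the GTPase at the end of the pathway, was the highest at 157 ± 9.64 TPM (SD over all 6 libraries), above every other member in every library. Crk (84 ± 6.90), Adgrb1 (76.6 ± 10.5) and Elmo2 (74.2 ± 5.0) formed a second tier whose ranges overlapped from neighbour to neighbour. Axl followed at 25 ± 8.15 TPM. Elmo1, Gulp1, Dock1, Mertk and Megf10 had means between 4.57 and 11.6 TPM, and each overlapped its neighbour in this order. These levels are annotated TPM, and the order depended on the quantity. By the longest assembled row Adgrb1 was second at 121 TPM and Elmo1, at 39.9 TPM, stood above Axl at 26.5 TPM. By read depth on the TPM scale, the deposited coverage described with Dock1, Mertk was sixth at 4.89, clear of Axl and Megf10 on either side. Rac1 was the highest member in all 3.

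The exchange factor Dock1 (ENSMUSG00000058325.7, chromosome 7, 134272383 to 134775368 on the plus strand in the files' coordinates) stood at 0.83, 1.07 and 1.96 TPM in the WT libraries, given here and throughout in the order of their replicate numbers. The S156A libraries were at 11.7, 10.4 and 8.60 TPM. The groups did not overlap, and the mean was 7.97 times as high in S156A (1.29 ± 0.59 against 10.2 ± 1.57 TPM; SD, n = 3 each). On log2(TPM + 1) the difference was 2.32 (SE 0.27), and Dock1 was the 1 member among the genes called by limma at an adjusted p under 0.05. Over all tested genes 0.159% were called, 0.0847% in the direction of Dock1, and nothing is read from the member count because this contrast chose Dock1. The call was lost without any 1 library other than WT replicate 3 (limma adjusted p between 0.11 and 0.25), and with the Y-linked genes as a covariate (0.12).

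**Figure D1:**
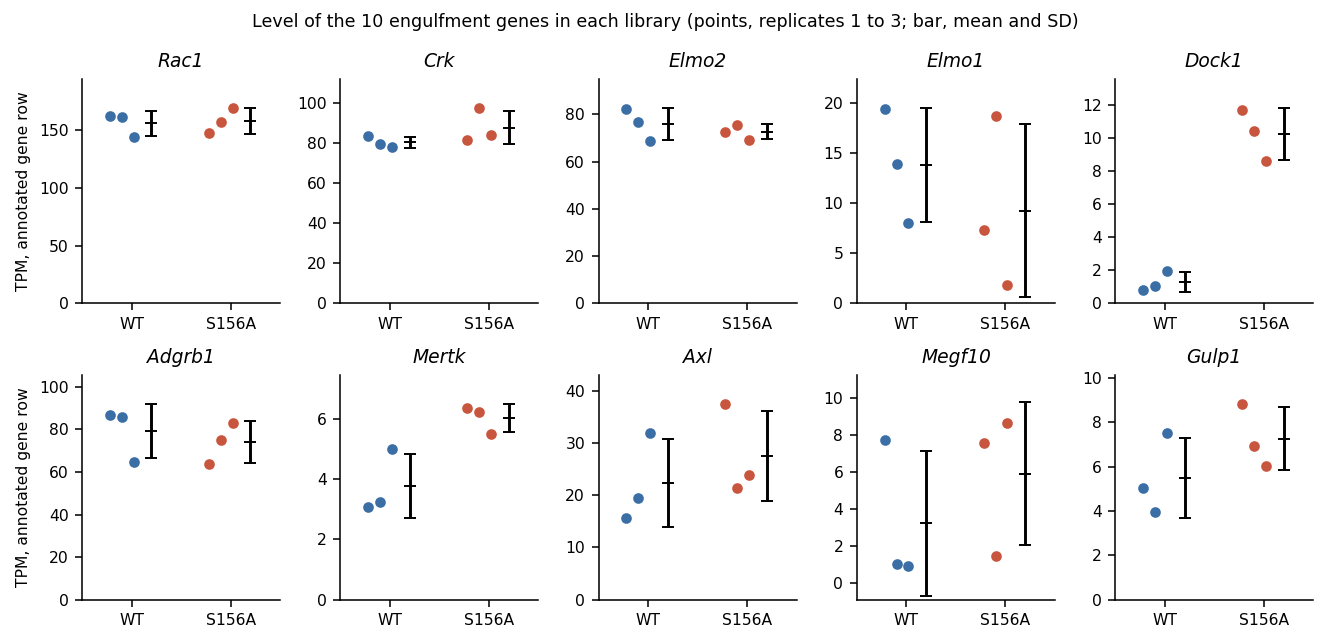
TPM of the annotated gene row (vertical axis, linear) for each of the 10 members in 3 WT libraries (blue) and 3 S156A libraries (red), with the mean and SD beside each group. Dock1 and Mertk are the members whose groups do not overlap, while Elmo1 and Megf10 vary from 1.80 to 19.5 and from 0.91 to 8.65 TPM without following genotype.

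The deposited tables hold each library in a second form, as rows assembled from the reads, and in the longest such row Dock1 did not separate the genotypes. The assembled row that covered most of Dock1 had 7.65, 9.90 and 10.1 TPM in the WT libraries. The S156A libraries had 11.6, 10.3 and 8.54 TPM. By this row the groups overlapped, with means of 9.21 ± 1.36 and 10.2 ± 1.55 TPM and a log2 difference of 0.13 (SE 0.20). It held the whole gene in the S156A libraries and 86.7, 80.0 and 86.0% of it in the WT libraries. The other WT row, nearest the gene start, had 0.96, 6.04 and 5.54 TPM and is not in these values. The third quantity in the tables is a coverage for each row, called read depth here, and for the annotated Dock1 row it also overlapped. No source used here says how coverage was computed for annotated rows, and for Dock1, Megf10, Elmo1 and Gulp1 TPM was several times the scaled coverage in some or all libraries, so what it measures there is not settled. Scaled by library depth to the same unit as TPM, it was 0.83, 1.07 and 1.12 in WT and 1.34, 1.20 and 0.96 in S156A, a ratio of means of 1.16. The ratio of group means was 7.97 by annotated TPM and 1.10 by the longest assembled row.

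**Figure D2:**
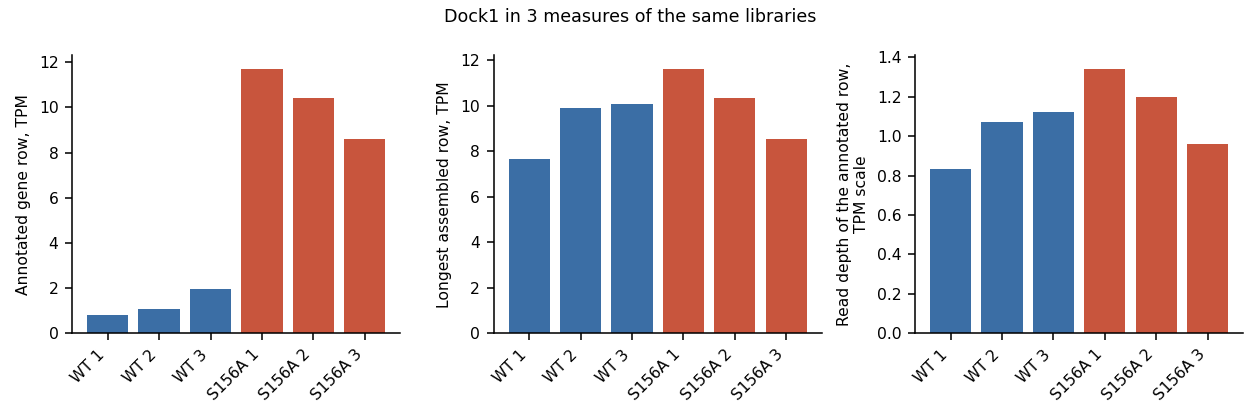
Dock1 in 6 libraries (WT blue, S156A red) by TPM of the annotated row, TPM of the longest assembled row, and read depth of the annotated row on the TPM scale, each with its own axis from 0. The left panel separates the genotypes, with S156A libraries at 8.60 to 11.7 and WT libraries at 0.83 to 1.96, and the other 2 panels do not.

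The 3 quantities differed along with the extent of the assembled rows. In each S156A library 1 assembled row ran over the whole 503 kb of Dock1. In each WT library the locus was in 2 rows, with a gap that began 63.4, 95.6 and 67.1 kb after the gene start in replicates 1 to 3 and ended at 67, 101 and 70.3 kb. The TPM of the annotated row equalled its scaled read depth in WT replicates 1 and 2 (ratio 1.00) and was 1.74 times that depth in WT replicate 3. In the S156A libraries it was 8.73, 8.69 and 8.95 times the depth. The listed Dock1 value was high in the 3 libraries with a full-length assembled row and low in the 3 without one. Why the quantities part was not tested. Dock1 has 6 transcripts in GENCODE M21, the longest coding one with 6807 bases in 52 exons.

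Mertk, the receptor tyrosine kinase (ENSMUSG00000014361.6, chromosome 2, 128540876 to 128644814, plus strand), had the same change of assembly but kept its separation in all 3 quantities. Its annotated row was at 3.08, 3.25 and 5.0 TPM in the WT libraries and 6.36, 6.23 and 5.52 TPM in the S156A libraries. The lowest S156A library lay above the highest WT library, and the log2 difference was 0.58 (SE 0.23), which did not pass the threshold over all genes. The read depth on the TPM scale was 3.08, 3.25 and 5.0 in WT and 6.31, 6.18 and 5.51 in S156A. The longest assembled row was at 3.88, 3.38 and 5.39 TPM in the WT libraries and at 9.64, 6.22 and 8.48 TPM in the S156A libraries, with a log2 difference of 0.81 (SE 0.25). That row covered 75.6, 36.9 and 62.2% of the gene in the WT libraries, in unlike parts, and the whole gene in the S156A libraries. The assembled values of Mertk therefore do not compare like with like. Unlike Dock1, the annotated value of Mertk equalled its read depth to within 1% in every library (ratio 1.00 to 1.01). Annotated TPM and read depth are therefore not separate measures of Mertk. Mertk lay in 2, 3 and 2 assembled rows in WT replicates 1 to 3 and in 1 row in each S156A library. The summed level of microglial markers, given with the other engulfment genes, also differed between the groups without overlap, and its part in the Mertk values was not tested.

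Of the 18893 tested genes, 62 (0.328%) had a row covering at least 95% of the gene in all S156A libraries and in no WT library, and 2 of the members, Dock1 and Mertk, were among them. The opposite pattern was found in 42 genes (0.222%), none of them a member. Of the members, 6 (Rac1, Crk, Elmo2, Adgrb1, Axl and Gulp1) had a whole-gene row in all 6 libraries. Among the 30 genes called over the whole table, Dock1 was the 1 gene whose groups overlapped both in the assembled rows and in read depth. These counts were made after the values were seen.

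**Figure D3:**
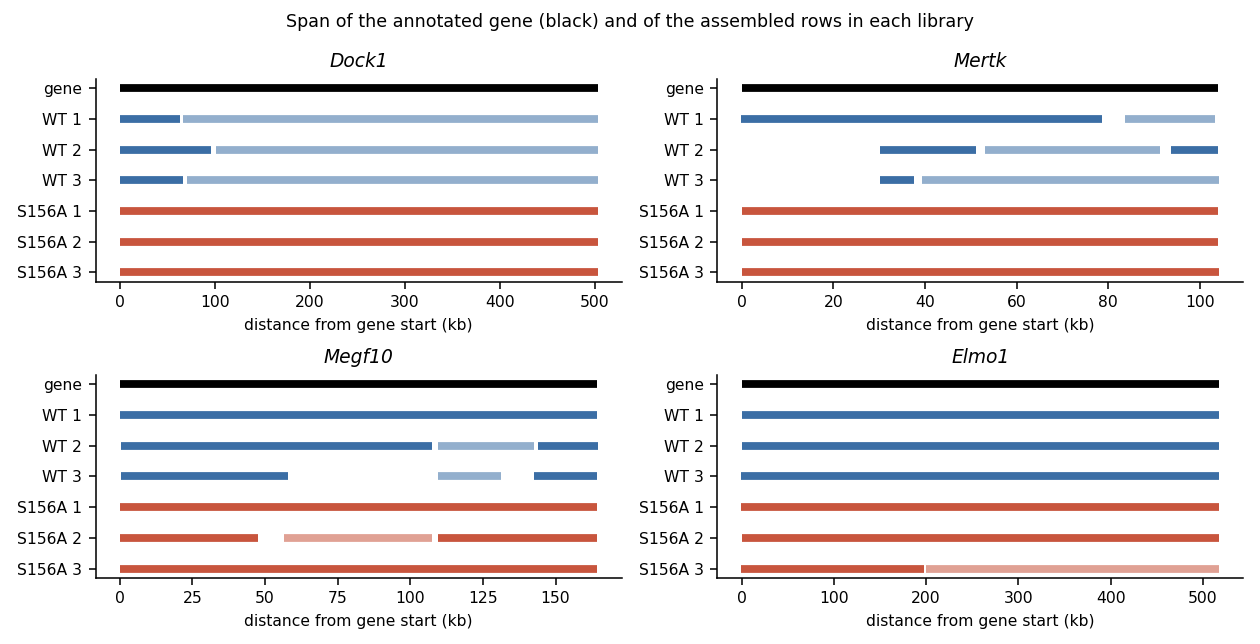
Extent of the annotated gene (black) and of the assembled rows in each library (WT blue, S156A red, neighbouring rows in lighter and darker shade) against distance from the gene start in kb. Dock1 and Mertk are in 1 piece in the 3 S156A libraries and in 2 or 3 pieces in the 3 WT libraries, while Megf10 is in 3 pieces in 2 WT libraries and 1 S156A library and Elmo1 is in 2 pieces in S156A replicate 3.

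The second TAM receptor, Axl (ENSMUSG00000002602.17, chromosome 7, 25456698 to 25488130, minus strand), varied widely between libraries of the same genotype. It stood at 15.7, 19.6 and 31.9 TPM in the WT libraries and 37.5, 21.5 and 23.9 TPM in the S156A libraries. The highest values were in WT replicate 3 and S156A replicate 1. These 2 libraries also held the most skeletal muscle and meningeal fibroblast transcript: the summed level of 10 muscle markers was 6939 and 7715 TPM there and 17.4 to 895 TPM in the other 4. The summed level of 8 fibroblast markers was 2131 and 2627 TPM there and 187 to 538 TPM elsewhere. Axl differed by 0.31 on the log2 scale (SE 0.30) with all libraries and by 0.35 (SE 0.18) without those 2. The part of these tissues in the Axl values was not tested.

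Adgrb1 (ENSMUSG00000034730.18, chromosome 15, 74388044 to 74461314, plus strand) is the receptor that binds phosphatidylserine directly. It stood at 87, 86 and 64.7 TPM in the WT libraries and 63.7, 75.2 and 83.1 TPM in the S156A libraries, lowest in the 2 libraries with the most muscle transcript. The groups overlapped, and the log2 difference was -0.09 (SE 0.16). A 95-base gene on the same strand, ENSMUSG00002076923, lies inside Adgrb1 and averaged 28.1 TPM, so reads there may be shared between the rows. The longest assembled row at Adgrb1 averaged 121 TPM over the 6 libraries, against 76.6 TPM for the annotated row.

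Megf10, the astrocyte engulfment receptor (ENSMUSG00000024593.16, chromosome 18, 57266162 to 57430539, plus strand), was listed at 7.75, 1.03 and 0.91 TPM in the WT libraries. It was listed at 7.58, 1.49 and 8.65 TPM in the S156A libraries. The 3 low libraries were those in which the locus lay in 3 assembled rows, and the 3 high ones those with 1 row. Read depth on the TPM scale moved far less, with 1.31, 1.03 and 0.91 in WT and 1.27, 1.49 and 1.41 in S156A. The longest assembled row had 7.72, 5.80 and 3.31 TPM in the WT libraries and 7.57, 10.01 and 8.65 TPM in the S156A libraries. In the libraries with 3 rows it covered unlike parts of the gene. It was the first 65.2% in WT replicate 2, the first 35.1% in WT replicate 3 and the last 33.3% in S156A replicate 2. The row at the opposite end had 7.34, 6.98 and 5.30 TPM in these libraries, so the assembled values do not compare like with like. The highest library was 9.46 times the lowest by annotated TPM, 3.03 times by assembled rows and 1.63 times by read depth. The groups overlapped in all 3 quantities, with log2 differences of 0.87 (SE 0.74) by annotated TPM, 0.61 (SE 0.30) by assembled rows and 0.20 (SE 0.15) by read depth.

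Elmo1, which pairs with Dock1 (ENSMUSG00000041112.18, chromosome 13, 20274766 to 20792523, plus strand), was listed at 19.5, 14.0 and 8.05 TPM in the WT libraries and at 7.31, 18.8 and 1.80 TPM in the S156A libraries. The lowest value, in S156A replicate 3, came from the 1 library in which the locus was in 2 rows, with a gap from 197 to 200 kb after the gene start. Read depth on the TPM scale stayed between 1.02 and 1.44, a 1.41-fold range, while annotated TPM spanned a 10.8-fold range. The longest assembled row stood at 43.3, 43.5 and 31.9 TPM in the WT libraries and 32.9, 50.9 and 37 TPM in the S156A libraries. The log2 difference was -0.86 (SE 0.68) by annotated TPM, 0.01 (SE 0.20) by assembled rows and -0.04 (SE 0.16) by read depth.

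Its relative Elmo2 (ENSMUSG00000017670.17, chromosome 2, 165129951 to 165168399, minus strand) was the steadier of the pair. It stood at 82.1, 76.8 and 68.9 TPM in the WT libraries and 72.7, 75.6 and 69.3 TPM in the S156A libraries. The groups overlapped, with a log2 difference of -0.06 (SE 0.11). Over all libraries Elmo2 had 6.42 times the mean level of Elmo1 by annotated TPM and 1.87 times by the longest assembled row.

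The adaptor Crk (ENSMUSG00000017776.16, chromosome 11, 75570085 to 75597734, plus strand) was at 83.5, 79.6 and 78.1 TPM in the WT libraries and 81.7, 97.3 and 84.1 TPM in the S156A libraries, with overlapping groups. Its log2 difference was 0.12 (SE 0.11). Rac1 (ENSMUSG00000001847.15, chromosome 5, 143489389 to 143513791, minus strand) stood at 162, 161 and 143 TPM in the WT libraries and 147, 157 and 169 TPM in the S156A libraries. The log2 difference of 0.02 (SE 0.10) was the smallest of the 10 members. Gulp1 (ENSMUSG00000056870.10, chromosome 1, 44590671 to 44835998, plus strand) was at 5.04, 3.96 and 7.50 TPM in the WT libraries and 8.82, 6.91 and 6.03 TPM in the S156A libraries. Its groups overlapped, its highest values were again in WT replicate 3 and S156A replicate 1, and the log2 difference was 0.37 (SE 0.27). The scaled read depth of Gulp1 was low in every library (0.14 to 0.29), and there the log2 difference was 0.03 (SE 0.14).

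Over the 10 members, 7 had a higher and 3 a lower mean log2 value in S156A by annotated TPM, with a median difference of 0.21. In assembled rows 9 were higher and 1 lower with a median of 0.13, and in read depth 7 were higher and 3 lower with a median of 0.06. The median over all tested genes was 0.09 in each of the 3 quantities, and 61.7% of tested genes were higher in S156A by annotated TPM. Of the members, 2 had groups that did not overlap by annotated TPM, both higher in S156A, against 20.8% of all tested genes, 13.7% higher and 7.05% lower. By assembled rows 1 member, Mertk, had groups apart, against 21.1% of genes (14.2% higher). Mertk was again the 1 member apart by read depth, against 23.1% of genes (15.6% higher). No member was called by limma in assembled rows, where 0.0815% of genes were called, or in read depth, where 0.222% were. Each of these 2 fits had 1 member at an unadjusted p under 0.05, and the adjusted p of Mertk by limma was 0.27 and 0.24.

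**Figure D4:**
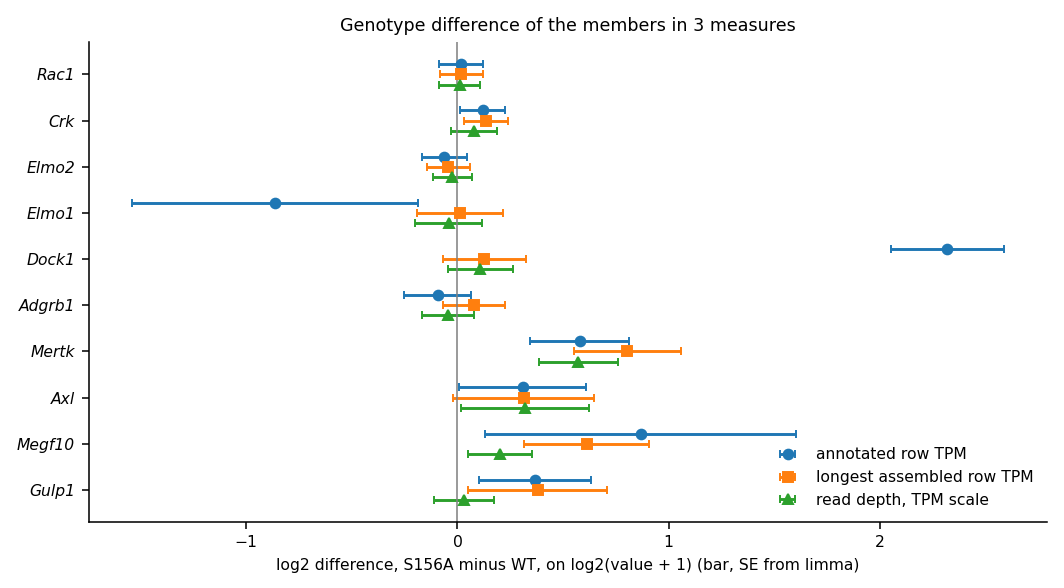
Log2 difference of S156A minus WT on log2(value + 1) for each member, with the SE from limma, by annotated TPM (circles), longest assembled row (squares) and read depth on the TPM scale (triangles). Dock1 lies at 2.32, 0.13 and 0.11 and Elmo1 at -0.86, 0.01 and -0.04, while Mertk lies between 0.57 and 0.81 in all 3.

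Several rows overlap other genes. Insyn2a, a synaptic gene on the opposite strand, lies inside Dock1 and averaged 14.8 TPM in the WT libraries and 11.2 TPM in the S156A libraries. Daglb, an enzyme of endocannabinoid synthesis on the opposite strand, overlaps Rac1 by 2309 bases and averaged 12.7 TPM. The libraries were made with a directional kit per the labels, and no source used here states a strand setting for the counting. On the same strand, Dock1, Elmo1 and Gulp1 overlap only genes with a mean under 1 TPM, and a 124-base gene inside Mertk, ENSMUSG00002074943, was listed at 0 in WT and averaged 1.57 TPM in the S156A libraries. Elmo2, Crk, Axl and Megf10 overlap no other annotated row.

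The 5 genes whose log2(TPM + 1) followed annotated Dock1 most closely over the 6 libraries were Hpgds, Hexa, Clec7a, Fcer1g and Gab1, with Pearson r between 0.990 and 0.998. Hpgds is a prostaglandin D synthase, Hexa a lysosomal hexosaminidase subunit, Clec7a a pattern recognition receptor, Fcer1g an Fc receptor subunit and Gab1 a docking adaptor. Fcer1g rose from 12.8 ± 3.29 to 38.9 ± 2.25 TPM. Hexa was at 48.0 ± 3.92 TPM in the WT libraries and 79.3 ± 2.79 TPM in the S156A libraries. All 5 separate the 2 genotypes, as annotated Dock1 does. With the assembled Dock1 row in its place, r was 0.45 to 0.50 over the same 6 libraries. These values describe 6 points that fall in 2 groups.

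The other genes of the pathway were described from 7 lists of engulfment genes. The lists were chosen with earlier results of these data known, so nothing is read from the number of called genes on them. Of 110 genes outside the members 103 were tested, and 2 were called, both higher in S156A, against 0.159% of all tested genes. Without any 1 library other than WT replicate 3 none of them was called by limma (15 to 23 at an unadjusted p under 0.05, against 24 with all libraries), and without WT replicate 3 there were 5. Over all tested genes 2628 had an unadjusted p under 0.05 with all libraries, which is 13.9%, and 1542 to 2423 without 1 of those libraries. The marker level of microglia differed between the groups, and it is given here because many genes on these lists are used by these cells. Microglia are the resident phagocytes of the brain. The summed level of 10 microglial markers was 105 to 163 TPM in the WT libraries and 315 to 325 TPM in the S156A libraries. For 10 markers of border macrophages and blood leukocytes the sum was 26 to 73.3 TPM in the WT libraries and 89.6 to 114 TPM in the S156A libraries. Ccr2 and Cd3e of that list were under 1 TPM in every library. The other 8, with S100a8, S100a9 and Lyz2 among them, reached a mean of 1 TPM. In whole brain, more cells of a type and more RNA per cell cannot be told apart, and the part of these cells in the values below was not tested.

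Among engulfment receptors 1 of 18 tested genes was called, 11 had higher and 7 lower values in S156A (61.7% of all tested genes were higher and 0.159% were called), and the median log2 difference was 0.11. Trem2, the lipid-sensing receptor of microglia, rose from 6.83, 4.79 and 7.45 TPM in WT to 21.3, 26.4 and 34.4 TPM in the S156A libraries, and its groups did not overlap in any of the 3 quantities. Its log2 difference was 1.94 (SE 0.23; limma adjusted p = 0.046) by annotated TPM, 1.94 (0.24; adjusted p = 0.053) by assembled rows and 1.67 (0.22; adjusted p = 0.056) by read depth. Its signalling partner Tyrobp was at 16.3 ± 7.89 TPM in the WT libraries and 53.6 ± 6.13 TPM in the S156A libraries. Itgam, the alpha chain of complement receptor 3, was at 0.92 ± 0.26 and 3.54 ± 0.43 TPM. Neither passed the threshold (limma adjusted p = 0.078 and 0.11). Tyro3, the third TAM receptor, was at 41.6 TPM in the WT libraries and 32.6 TPM in the S156A libraries with a log2 difference of -0.33 (SE 0.14), and was named after its value was seen.

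Among genes of phagosome maturation and lipid efflux 1 of 19 was called, 15 had higher and 4 lower values (over all tested genes 61.7% higher and 0.159% called), and the median log2 difference was 0.11. Abca1, a cholesterol exporter, rose from 17.4, 17.3 and 19.3 TPM in WT to 40.8, 53.1 and 42.9 TPM in the S156A libraries. The lowest S156A library had more than the highest WT library, with a log2 change of 1.29 (SE 0.14; adjusted p = 0.045 by limma). The adjusted p of Abca1 was 0.050 in assembled rows, just short of the call, and 0.037 in read depth. The lysosomal membrane proteins Lamp2 (48.1 ± 10.6 TPM in WT, 71.2 ± 2.70 TPM in the S156A libraries) and Lamp1 (233 ± 3.18 and 282 ± 11.8 TPM) did not pass the threshold.

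Among 6 tested signals that restrain uptake none was called by limma, with 3 at an unadjusted p under 0.05, against 13.9% of all tested genes. Cx3cl1, the neuronal ligand of the microglial receptor Cx3cr1, stood at 61.4, 65.4 and 48.8 TPM in the WT libraries and 28.5, 33.5 and 30.3 TPM in the S156A libraries. The groups did not overlap, and its log2 difference of -0.90 (SE 0.14) missed the threshold (limma adjusted p = 0.074). The surface glycoprotein Cd24a was at 495 ± 75.8 TPM in the WT libraries and 774 ± 126 TPM in the S156A libraries, and Sirpa, the receptor for the signal Cd47, at 58.4 ± 2.85 and 69.6 ± 4.27 TPM.

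The list of adaptors and exchange factors that act on Rac beside the members also holds GTPases such as Rac2 and Rac3. Its 18 tested genes had 9 higher and 9 lower values and a median log2 difference of 0.01. None was called by limma, and 4 had an unadjusted p under 0.05 (13.9% over all tested genes), Rac2 and Rac3 among them. Rac3, the neuronal relative of Rac1, was at 427, 387 and 284 TPM in the WT libraries and 163, 213 and 233 TPM in the S156A libraries. The groups did not overlap, with a log2 difference of -0.84 (SE 0.19, adjusted p = 0.16 by limma), whereas Rac1 differed by 0.02. The blood-cell forms Vav1 (1.08 ± 0.14 and 4.02 ± 1.04 TPM) and Rac2 (2.49 ± 1.62 and 6.29 ± 2.55 TPM) had higher S156A means and did not pass the threshold. In assembled rows the means were 2.23 and 4.73 TPM for Vav1 and 4.33 and 6.68 TPM for Rac2. Whole-gene rows were found in 0 WT and 2 S156A libraries for Vav1 and in 1 and 3 for Rac2.

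In the actin machinery downstream of Rac none of 23 genes was called by limma, with 4 at an unadjusted p under 0.05, 15 higher and 8 lower values and a median of 0.05. Over all tested genes 13.9% had such a p and 61.7% were higher. Nckap1l, the blood-cell subunit of the WAVE complex, was at 1.70 ± 0.44 TPM in the WT libraries and 6.72 ± 2.34 TPM in the S156A libraries. Its partner Cyfip1 was at 31.5 ± 2.02 and 44.6 ± 4.03 TPM, and Was, the blood-cell actin nucleation factor, at 0.59 ± 0.40 and 1.83 ± 0.56 TPM. The assembled rows lay closer together, at means of 3.92 and 7.96 TPM for Nckap1l and 1.89 and 2.70 TPM for Was. Nckap1l had a whole-gene row in 0 WT and 3 S156A libraries, as Dock1 did. Unlike those of Dock1, its assembled rows stayed apart, at 3.51, 4.41 and 3.83 TPM in the WT libraries and 7.11, 8.09 and 8.66 TPM in the S156A libraries. The Nckap1l log2 difference was 1.47 by annotated TPM, 0.87 in assembled rows and 1.07 in read depth.

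Among 14 bridging ligands and genes of phosphatidylserine exposure none was called by limma, with 2 at an unadjusted p under 0.05 (13.9% over all tested genes) and a median of 0.16. Edil3, a bridging protein, was at 34.9 ± 4.70 TPM in the WT libraries and 23.1 ± 4.98 TPM in the S156A libraries. The bridging protein Mfge8 was at 155.7 ± 10.2 and 185 ± 11.4 TPM, and the scramblase Ano6 at 21.5 ± 3.41 and 28.1 ± 6.31 TPM. The other DOCK genes are relatives of Dock1, and none of the 8 tested was called by limma or had an unadjusted p under 0.05. Dock10 (1.86 ± 0.13 and 1.34 ± 0.44 TPM) had a log2 difference of -0.31 by annotated TPM, 0.21 in assembled rows and -0.08 in read depth. Dock9 (30.4 ± 2.89 and 33.5 ± 4.17 TPM) differed by 0.13 by annotated TPM and by -0.17 in read depth, and its assembled rows averaged 53.3 and 53.2 TPM.

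**Figure D5:**
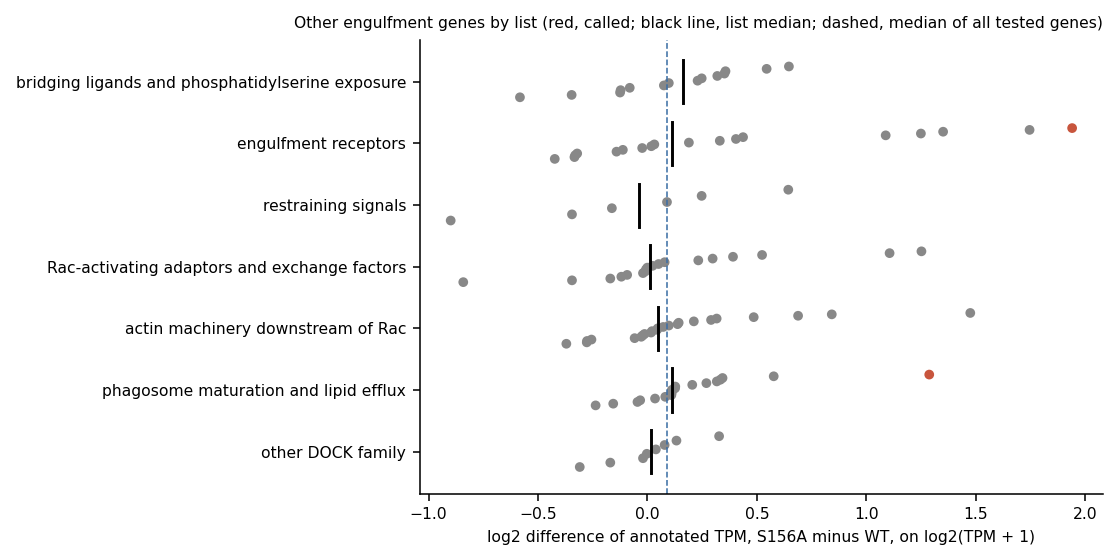
Log2 difference of S156A minus WT on log2(TPM + 1) for each tested gene of 7 engulfment lists outside the members (points, called genes marked) with the median of each list. The medians lie between -0.04 and 0.16, and Trem2 and Abca1 are the 2 called genes.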

How the data were processed

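RNA from 6 libraries of E18.5 brain (3 WT, 3 S156A) was sequenced by the authors. Per the submitters' processing notes, reads were handled with StringTie 2.1.5, HISAT2 2.2.1 and Trim Galore 0.6.6, and the build they name is hg38, although the deposited rows are mouse genes. No source used here states the files' build: of 50012 genes matched by symbol to GENCODE M21 (GRCm38), 4.14% start within 1000 bases of their position there.

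The deposited tables give coverage, FPKM and TPM for each row, per the file headers. Each table holds annotated genes and rows assembled from the library's reads. The assembled rows alone sum to 1000000 TPM, while annotated genes hold 93.1% to 95.8% of as much. The main values are the annotated TPM. Each gene's assembled row is the one with the longest same-strand overlap, and read depth is the deposited coverage per aligned gigabase put on the TPM scale. Aligned gigabases were estimated as the most common ratio of coverage to FPKM among rows of higher FPKM. Only 13.5% to 14.7% of those rows lay at that ratio, so the scale of read depth is approximate. The tables hold no read counts, so the number of reads behind a value is unknown and no counting interval is given.

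TPM was tested as log2(TPM + 1) for genes with a mean of at least 1 TPM by limma 3.58.1 in R 4.3.3, with trend, no covariate and Benjamini-Hochberg adjustment over 18893 genes (threshold 0.05), so differences of low genes are understated. Only the limma step was tested on simulated data, in which every gene had the same spread. The matching of assembled rows and the scaling of read depth were not tested in that way. Tables and figures were made in Python 3.11.15 with pandas 2.3.3 and matplotlib 3.10.9. Replicates are pools of different brains, per the labels' protocols. The members and all lists were chosen with earlier results of these data known. Named genes are the members, the called genes or the up to 3 smallest unadjusted p of each list, the 5 genes most like Dock1, overlapping genes, and the 2 highest oligodendrocyte lineage markers. A gene that this rule names is not reported here. The alternatives were FPKM, other pseudocounts, filters, scalings and variance models, a replicate block, libraries left out, a Y-linked covariate, assembled rows and read depth.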

Additional observations from a re-analysis of the deposited data

How the results depend on the processing

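Dock1 was the called member in the main result (1) and under FPKM, both other pseudocounts, the 3 scalings and both variance models. The count of called members was 0 with no filter, at a mean of at least 5 TPM, without WT replicate 3 and S156A replicate 1 together, with the Y-linked covariate, in assembled rows and in read depth, and 0 to 1 with 1 library left out, the 1 being without WT replicate 3. The Dock1 log2 difference ran from 1.28 to 2.97 over 19 other settings, was called in 9 of them (limma adjusted p 0.032 to 0.29), and was 0.13 in assembled rows and 0.11 in read depth, both chosen after seeing the data. Of the members, 2 had groups apart by TPM, 3 by FPKM, 1 in assembled rows and 1 in read depth. Of the other engulfment genes 2 were called in the main result, 1 by FPKM, 1 by read depth, 0 with no filter, without a trend, with both libraries left out, with the Y-linked covariate and in assembled rows (18 to 28 at an unadjusted p under 0.05 by limma), and 0 to 5 with 1 library left out, the 5 being without WT replicate 3. Of all genes 30 were called, 52 after quantile normalization (16 higher, 36 lower, against 16 and 14), 44 with trimmed mean scaling (14 higher, 30 lower), 37 by FPKM (13 higher, 24 lower), 16 without a trend, 15 in assembled rows, 1 with the Y-linked covariate, 0 with no filter (3364 at an unadjusted p under 0.05 by limma), 0 with both libraries left out (3141), and 0 to 70 with 1 library left out, the 70 being without WT replicate 3. Over the tested genes the median log2 difference was 0.09, and 0.01 and 0.02 under the trimmed mean and quantile scalings. With the replicate block 0 genes, 0 members and 0 other engulfment genes were called (1880 genes at an unadjusted p under 0.05 by limma). Deviations from the group mean correlated between same-numbered libraries at -0.55, 0.19 and -0.41. The highest value of any WT and S156A pair was 0.65, for WT replicate 3 with S156A replicate 1. Both of these pools were rich in muscle transcript, so such values cannot decide whether the numbers pair the samples. Adding assembled to annotated rows was planned and not run, because the assembled rows alone already hold the whole library. Depth limits are unknown without read counts.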

Other observations

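Of the 30 called genes, 4 had a whole-gene assembled row in 1 group only: Dock1, Slc6a5, Thsd7b and Mpeg1, singled out after their values were seen. Thsd7b differed by -2.48 on the log2 scale by annotated TPM, by -0.71 in assembled rows and by -0.23 in read depth. Slc6a5, the neuronal glycine transporter, differed by -1.68, -1.43 and -1.28, and Mpeg1, a pore-forming protein of macrophages, by 1.87, 2.63 and 1.87. Groups stayed apart in assembled rows for 28 of the 30 genes and in read depth for 29.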
